A study of Homo sapiens with 12 samples.

Results

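Caco-2 cells that had received a scrambled siRNA were compared with Caco-2 cells that had received an empty plasmid vector, the controls of a study in which SIRT1, an NAD-dependent protein deacetylase, was overexpressed or knocked down. The comparison covers 5 of the 12 arrays of the series, chosen by their labels: 2 arrays of cells given a low-GC scrambled siRNA, and 3 arrays of cells given the empty vector pCMV-Neo. Caco-2 is an epithelial line from a human colorectal adenocarcinoma that takes on features of small intestinal enterocytes as it grows dense. The other 7 arrays are used below for a matching comparison: 4 of cells given SIRT1 siRNAs (2 with the siRNA called KD1 and 2 with KD2) and 3 of cells given the plasmid pCMV-ENTRY Sirt1. Gene expression was measured on Illumina bead arrays, and the samples of a group are described as biological replicates. All were grown in DMEM with fetal calf serum and non-essential amino acids. The siRNA cells were lysed 72 h after transfection, and for the plasmid cells no such time is stated in the labels. The kind of nucleic acid, its transfection, the culture time and any batch may each differ with the group and cannot be told apart. All cells are of 1 line, the numbers of arrays limit the precision, and p-values measure only the spread between these samples. The arrays measure RNA pooled over cells, so fewer cells of a type and less RNA per cell cannot be told apart.

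Cells short of oxygen stabilise the hypoxia-inducible factors (HIFs), transcription factors that bind short response elements near genes for glycolysis, iron uptake, collagen modification, mitophagy and blood vessel growth. Iron- and oxygen-dependent prolyl hydroxylases mark HIF for destruction, and some of their genes are HIF targets themselves. Other stimuli can turn the same genes on, and the programme is named for its best-known trigger. The interferon response is a separate programme: sensors of foreign RNA or DNA lead to interferon secretion, and the factor ISGF3, which contains IRF9, then binds interferon-stimulated response elements. Growth draws on ribosome assembly, DNA replication and mitosis, which proliferating cells run together.

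SIRT1, the gene the study manipulated, had log2 levels of 8.58 and 8.88 on the scrambled siRNA arrays, against 8.53, 8.58 and 8.98 on the empty vector arrays. The groups overlapped, and the log2 fold change was 0.03 ± 0.20 (SE, limma adjusted p = 0.947). Among the sirtuins and enzymes of NAD salvage, 0 of 18 genes tested passed limma's test, against 5 with an unadjusted p below 0.05. Such a p was found for 2666 of all 11458 genes tested.

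Of 11458 genes tested, 578 (5.04%) differed between the controls at an adjusted p below 0.05: 433 (3.78%) were higher with scrambled siRNA and 145 (1.27%) were lower. At an unadjusted p below 0.05 there were 2666 of the 11458. The counts of each list below are to be read against these shares over all genes. The rises were larger than the falls: 193 rises and 9 falls exceeded 2-fold, and 36 rises and 0 falls exceeded 4-fold. The median log2 fold change was 0.92 among genes that rose, -0.64 among genes that fell and -0.01 over all genes. Every called gene had arrays that did not overlap between the groups, which held for 44.1% of all genes. Of the genes that rose, 96 were not detected on any empty vector array, and 5 of those that fell were not detected on either scrambled siRNA array. For such genes the fold is given as a bound ("at least"), set on each array without detection against the lowest level of any detected probe, or against the gene's own level where that was higher.

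The 2 scrambled siRNA arrays had 17483 and 17981 probes detected, against 15345 to 15871 on the 3 empty vector arrays, and the part of this gap in the counts was not tested. Among genes detected on all 5 control arrays, 427 rose and 246 fell. With the authors' own normalised values, 673 genes rose and 384 fell, so that 63.7% of calls were rises, against 74.9% in the values used here. The correlation of log2 levels over the genes tested was 0.992 between the scrambled siRNA arrays. It was 0.986 to 0.989 among the empty vector arrays and 0.975 to 0.979 between the groups. The calls rest on both scrambled siRNA arrays: without scrambled siRNA replicate 1 or without replicate 2, 0 genes passed limma's test, with 1787 and 1693 at an unadjusted p below 0.05. Without 1 of the 3 empty vector arrays, 106 to 160 genes rose and 28 to 38 fell. All 578 genes kept their direction in each of these 5 fits.

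**Figure D1:**
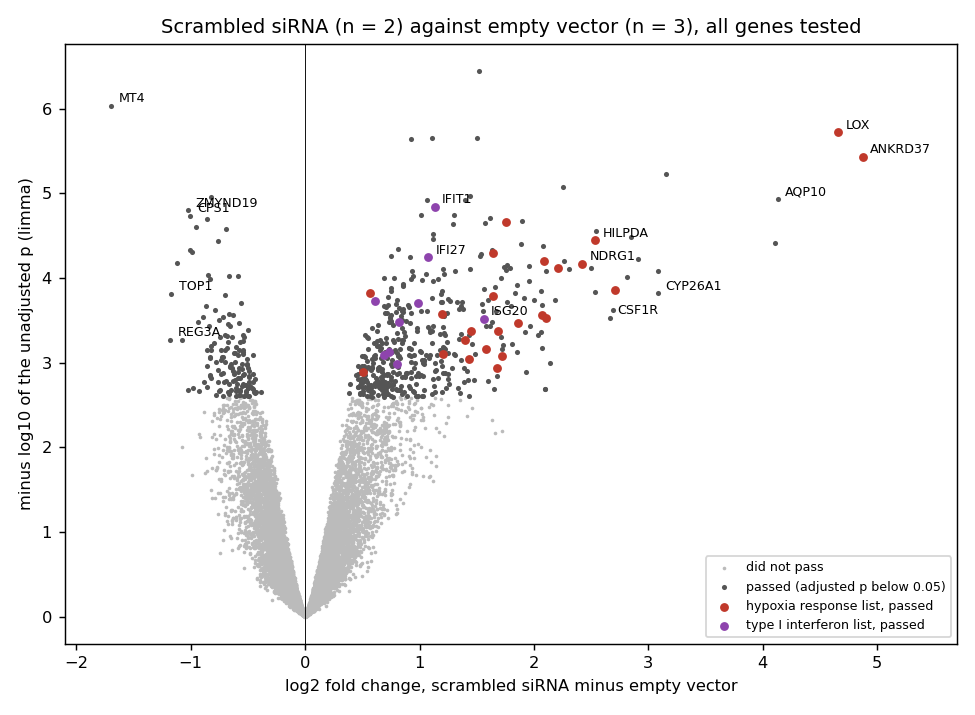
Log2 fold change of scrambled siRNA minus empty vector (x axis) against minus log10 of the unadjusted limma p (y axis) for the 11458 genes tested. Dark points are the 578 genes that passed, and coloured points are the 24 hypoxia response and 9 interferon response genes among them. The right arm reaches 4.88 and the left arm reaches -1.69.

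Genes of the hypoxia response included the 2 largest rises. Of 39 genes listed, 34 were on the array and 31 were tested. Of these, 24 rose, 0 fell and 7 did not pass, against 3.78% of all genes that rose. The list's median log2 fold change was 1.64, against -0.01 over all genes, and 30 of 31 members lay above 0. The mean level of the list, centred on each gene's mean over the 12 arrays, was 0.93 and 0.80 on the scrambled siRNA arrays, against -0.69, -0.69 and -0.81 on the empty vector arrays.

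The promoters of the 3 members with the largest rises show where the letters of the HIF response element core lie. The sequences are the 250 bases before the RefSeq start of each gene (GRCh38.p14), 5′ to 3′ on the gene's strand, with each ACGTG or GCGTG, on either strand, in capitals. They are ANKRD37 on the plus strand at chr4:185396591-185396840, LOX on the minus strand at chr5:122078260-122078509 and ANGPTL4 on the plus strand at chr19:8363905-8364154.
ANKRD37: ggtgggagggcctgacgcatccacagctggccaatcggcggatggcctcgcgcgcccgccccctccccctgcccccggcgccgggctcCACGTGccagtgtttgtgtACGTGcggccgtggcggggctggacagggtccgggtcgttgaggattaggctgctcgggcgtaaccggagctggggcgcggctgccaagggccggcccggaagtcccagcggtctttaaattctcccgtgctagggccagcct
LOX: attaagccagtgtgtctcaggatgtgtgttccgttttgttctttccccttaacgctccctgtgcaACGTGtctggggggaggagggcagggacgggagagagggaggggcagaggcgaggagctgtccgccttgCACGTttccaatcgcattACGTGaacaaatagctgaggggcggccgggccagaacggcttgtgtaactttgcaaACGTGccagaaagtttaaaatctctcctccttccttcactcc
ANGPTL4: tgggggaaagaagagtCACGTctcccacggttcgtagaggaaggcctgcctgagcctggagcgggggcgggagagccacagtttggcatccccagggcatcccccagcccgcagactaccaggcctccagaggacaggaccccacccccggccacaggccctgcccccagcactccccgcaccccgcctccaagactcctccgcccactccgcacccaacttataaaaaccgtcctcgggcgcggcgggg
ANKRD37 held 3 such matches, 2 of which are the same palindrome read on both strands, LOX held 4 and ANGPTL4 held 1. At least 1 match was present in 17 of the 21 hypoxia response genes that rose and had a promoter in the RefSeq table, in 57.4% of the 9210 promoters of tested genes and in 43.1% of all 27305 promoters. A match is a description of the letters and not of binding.

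ANKRD37, an ankyrin repeat protein whose gene is a HIF target, had log2 levels of 12.09 and 11.48 with scrambled siRNA, against 7.08, 6.96 and 6.70 with empty vector. LOX, the copper enzyme that crosslinks collagen and elastin, had 11.12 and 10.86 with scrambled siRNA, against 6.33, 6.40 and 6.26 with empty vector. For both genes, each scrambled siRNA array lay more than 4 log2 units above each empty vector array. The log2 fold change was 4.88 ± 0.56 for ANKRD37 (29.4-fold, SE, limma adjusted p = 0.00601) and 4.66 ± 0.50 for LOX (25.2-fold, adjusted p = 0.00436). ANGPTL4, a secreted inhibitor of lipoprotein lipase, had 8.21 and 7.57 with scrambled siRNA, against 4.87, 5.16 and 5.52 with empty vector, where no array detected it. It was at least 4.13-fold higher with scrambled siRNA (adjusted p = 0.0177), although a dimmer probe of the same gene gave a log2 fold change of only 0.20.

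HILPDA, a lipid droplet protein that holds back lipolysis, had log2 levels of 11.01 and 10.88 with scrambled siRNA, against 8.23, 8.46 and 8.53 with empty vector. NDRG1, a stress protein tied to differentiation, had 12.96 and 12.67, against 10.58, 10.46 and 10.15. DDIT4 (REDD1), which inhibits the growth kinase complex mTORC1, had 12.06 and 11.99, against 10.06, 9.76 and 9.62. In all 3 genes both scrambled siRNA arrays lay well above all 3 empty vector arrays. Their log2 fold changes were 2.53 ± 0.37 for HILPDA (adjusted p = 0.0126), 2.42 ± 0.38 for NDRG1 and 2.21 ± 0.35 for DDIT4 (adjusted p = 0.0147 for both). P4HA2, a collagen prolyl hydroxylase, rose by 2.10 ± 0.40 (adjusted p = 0.0214), and its other probe gave 2.01. BHLHE40, a transcriptional repressor, rose by 1.68 ± 0.33 (adjusted p = 0.025). TFRC, the transferrin receptor, rose by 0.57 ± 0.10 (adjusted p = 0.0181), among the smallest rises of the list.

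Members of the programme did not all pass. EPO, the hormone of red cell production, had log2 levels of 7.12 and 6.88 with scrambled siRNA, against 6.36, 6.04 and 5.15 with empty vector (log2 fold change 1.15 ± 0.40, adjusted p = 0.126). VEGFA, the main growth factor of blood vessels, had 8.06 and 7.78, against 7.36, 7.32 and 7.18 (0.64 ± 0.26, adjusted p = 0.173), and its other probe gave 0.99. In both genes the groups did not overlap, which held for 44.1% of all genes, and neither difference passed. KDM4B, a histone demethylase, had a log2 fold change of 0.26 (adjusted p = 0.666).

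**Figure D2:**
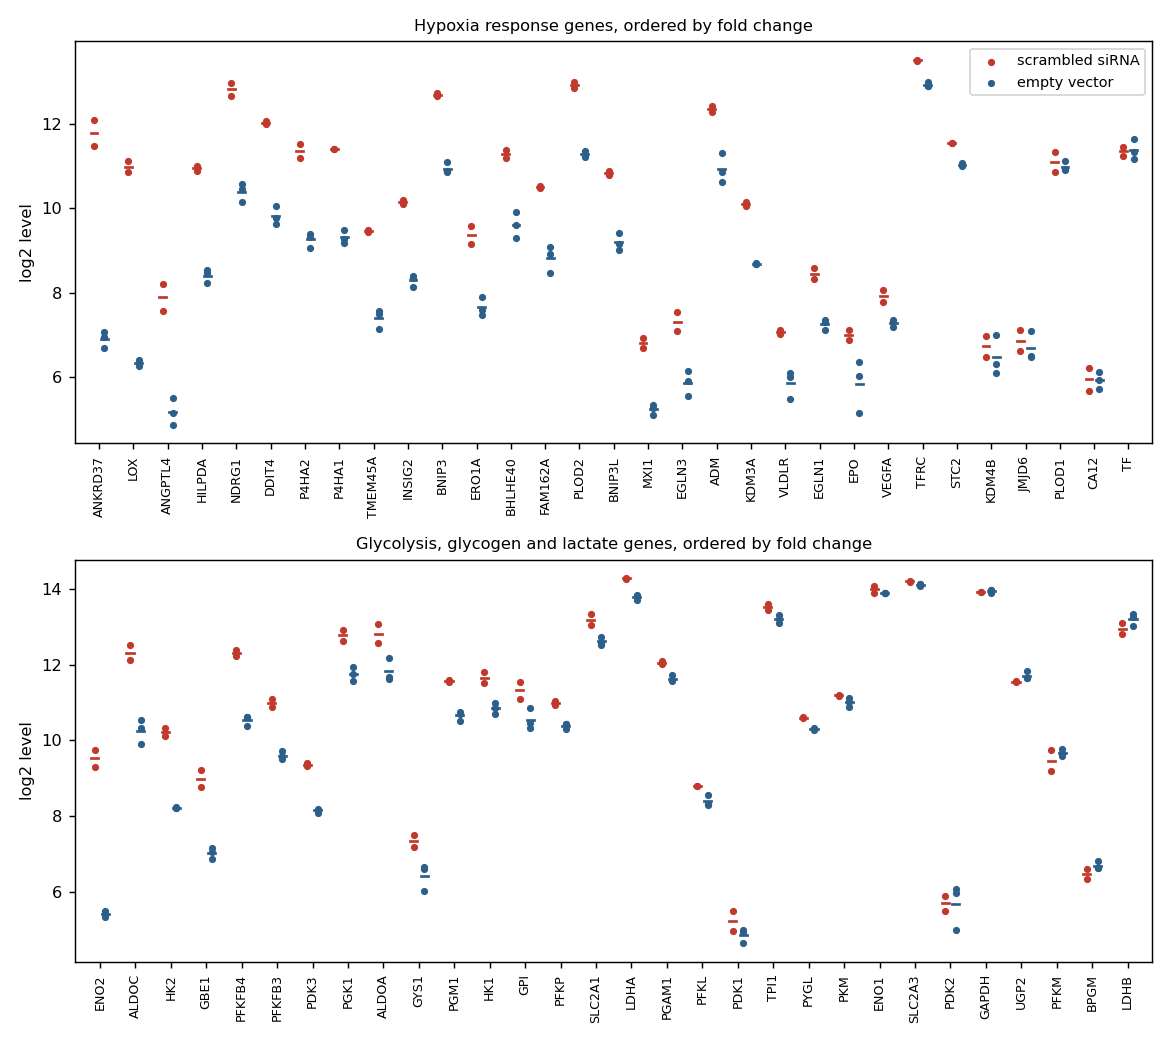
Log2 level (y axis) of each tested member of the hypoxia response list (top) and the glycolysis list (bottom) on the 2 scrambled siRNA arrays (red, left of each pair) and the 3 empty vector arrays (blue, right), with bars at the group means. Genes run from the highest fold change to the lowest. In 24 of 31 hypoxia genes and 10 of 30 glycolysis genes the difference passed the test.

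Of the HIF subunits and their hydroxylases, 2 of 8 rose and 0 fell, against 3.78% of all genes that rose. The median was -0.07, with 5 of 8 members below 0. The 2 that rose were the prolyl hydroxylases EGLN1 and EGLN3, which also belong to the hypoxia response list. EGLN3 had log2 levels of 7.09 and 7.55 with scrambled siRNA, against 5.56, 6.15 and 5.91 with empty vector (1.45 ± 0.29, adjusted p = 0.025). EGLN1 had 8.59 and 8.32, against 7.36, 7.30 and 7.11 (1.20 ± 0.22, adjusted p = 0.0206). The transcripts of the oxygen-regulated HIF subunits, named after their values were seen, had no such gap. HIF1A had 7.72 and 8.24 with scrambled siRNA, against 7.95, 8.15 and 8.19 with empty vector, and EPAS1 had 11.14 and 11.08, against 11.12, 11.16 and 11.11. Among the genes that did not pass, EGLN2, the third prolyl hydroxylase, had a log2 fold change of -0.13 (adjusted p = 0.472) and HIF1AN, the asparaginyl hydroxylase of HIF, had -0.33 (adjusted p = 0.284).

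Glycolysis genes rose in part. Of 30 tested, 10 rose and 0 fell, against 3.78% of all genes that rose, and the median log2 fold change was 0.54. ENO2, an enolase isoform best known from neurons, had log2 levels of 9.76 and 9.29 with scrambled siRNA, against 5.51, 5.41 and 5.34 with empty vector. No empty vector array detected it, and it was at least 12.8-fold higher with scrambled siRNA (adjusted p = 0.0128). ALDOC, an aldolase isoform, had 12.52 and 12.12, against 10.54, 10.34 and 9.90 (log2 fold change 2.06 ± 0.41, adjusted p = 0.025). HK2, the inducible hexokinase, had 10.33 and 10.12, against 8.21, 8.24 and 8.22 (2.00 ± 0.36, adjusted p = 0.0191). These isoforms were the furthest apart between the groups, with no overlap.

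The regulators of glycolytic flux PFKFB4 and PFKFB3, which make and break the activator fructose-2,6-bisphosphate, rose by 1.77 ± 0.28 (adjusted p = 0.0147) and 1.38 ± 0.25 (adjusted p = 0.0199). GBE1, the glycogen branching enzyme, rose by 1.96 ± 0.33 (adjusted p = 0.0154). Among the genes that did not pass, HK1, the constitutive hexokinase, had a log2 fold change of 0.81 (adjusted p = 0.0579), the glucose transporter SLC2A1 had 0.58 (adjusted p = 0.0736) and the aldolase ALDOA had 0.99 (adjusted p = 0.0936). In all, 19 of 30 members had an unadjusted p below 0.05 with a higher level in scrambled siRNA cells, and 0 with a lower one.

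Mitochondrial metabolism gave few calls. Of 69 subunits of oxidative phosphorylation, 0 passed limma's test and 7 had an unadjusted p below 0.05, all lower with scrambled siRNA. Such a p was found for 2666 of all 11458 genes. The ATP synthase gene ATP5MC1, named after its values were seen, had -0.54. Its dimmer probe had -0.89 (limma adjusted p over all probes = 0.0342). The median was -0.13, and 53 of 69 lay below 0. NDUFB2, a complex I subunit, had a log2 fold change of -0.39 (adjusted p = 0.0796) and NDUFC2, another, had -0.68 (adjusted p = 0.121). In the TCA cycle list 1 of 21 genes rose, PCK1, the gluconeogenic carboxykinase, which no empty vector array detected and which was at least 1.14-fold higher (adjusted p = 0.025). Of 76 mitochondrial ribosomal proteins, a family picked after the calls were seen, 2 fell and 62 lay below 0, with a median of -0.15.

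The 3 lipid lists gave 4 rises and 0 falls among 71 members tested (5.63%), against 3.78% of all genes tested that rose. PLIN2, which coats lipid droplets, had log2 levels of 12.21 and 12.05 with scrambled siRNA, against 11.08, 10.97 and 11.05 with empty vector (1.09 ± 0.24, adjusted p = 0.0317), and was the 1 call among 25 genes of fatty acid oxidation and ketogenesis. APOA4, an apolipoprotein of enterocyte chylomicrons, had 8.49 and 8.52, against 5.73, 6.56 and 6.67 (2.18 ± 0.39, adjusted p = 0.0191), and was the 1 call among 17 apolipoproteins and absorption genes. In cholesterol synthesis 2 of 29 rose: INSIG1, which retains the sterol sensor in the endoplasmic reticulum, by 0.77 ± 0.15, and MSMO1, a sterol oxidase, by 0.67 ± 0.15. A dimmer probe of MSMO1 had a log2 fold change of -0.24. Iron genes gave 3 rises among 12: TFRC, the importer SLC11A2 (0.75 ± 0.13, adjusted p = 0.0179) and the exporter SLC40A1 (0.52 ± 0.11, adjusted p = 0.0323).

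Of 33 targets of ATF4, the factor of amino acid shortage, 4 rose, 10 had an unadjusted p below 0.05 with a higher level in scrambled siRNA cells, and 23 lay above 0, with a median of 0.19. DDIT4, VLDLR and STC2, 3 of the 4 calls, also belong to the hypoxia response list. The fourth, GDF15, a stress cytokine, had log2 levels of 9.27 and 9.08 with scrambled siRNA, against 7.49, 7.77 and 7.60 with empty vector (1.56 ± 0.29, adjusted p = 0.0202). GDF15 and TNFRSF10B, a death receptor (0.52 ± 0.13, adjusted p = 0.0454), were the 2 calls among 23 p53 targets. Across all genes 3.78% rose. Of 19 genes of the FOXO and starvation response, 16 lay above 0, with a median of 0.27. An unadjusted p below 0.05 was found for 10 that were higher in scrambled siRNA cells and 1 that was lower. The 3 that rose were IGFBP3, a binding protein of insulin-like growth factors (1.89 ± 0.26, adjusted p = 0.0105), CITED2, a coactivator-binding protein that limits HIF (1.16 ± 0.19, adjusted p = 0.015), and PCK1. No member of the NRF2 list for oxidative stress passed limma's test (0 of 26), and 4 had an unadjusted p below 0.05. Over all genes 2666 of 11458 had such a p.

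Immediate early genes, which cells transcribe within minutes of a stimulus, gave 7 rises and 1 fall among 36, with a median of 0.31. Across all genes 3.78% rose and 1.27% fell. FOS, a subunit of the factor AP-1, had log2 levels of 9.80 and 10.01 with scrambled siRNA, against 7.58, 7.36 and 7.17 with empty vector (2.53 ± 0.44, adjusted p = 0.0181). JUN, its partner, had 8.31 and 8.72, against 7.31, 7.43 and 7.42 (1.13 ± 0.28, adjusted p = 0.045). ZFP36, which destabilises cytokine mRNAs, had 10.58 and 10.25, against 9.03, 8.94 and 9.18 (1.36 ± 0.25, adjusted p = 0.0194). These 3 genes were higher on each scrambled siRNA array than on any empty vector array, as was every gene called higher. KLF4, a factor of epithelial differentiation, rose by 0.98 ± 0.19 (adjusted p = 0.0238), while KLF6 and IER5 rose by 0.59 and 0.53. CCN2, a matricellular target of YAP and TGF-β, fell by 0.72 on the log2 scale (SE 0.17, adjusted p = 0.0393), and its other probe gave -0.17. CCN1, its relative, had -0.67 (adjusted p = 0.0509). Among NF-kB targets 2 of 25 rose: CCL20, an epithelial chemokine (1.59 ± 0.38, adjusted p = 0.0427), and the NF-kB subunit gene RELA (0.49 ± 0.12, adjusted p = 0.0432).

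Interferon response genes rose in part, by 1.56 at most on the log2 scale. Of 52 listed, 50 were on the array and 36 were tested. Of these 9 rose, 0 fell and 27 did not pass, against 3.78% of all genes that rose. The median was 0.20, with 28 members above 0. The promoters of the 3 largest rises are shown over the same 250 bases of GRCh38.p14 from RefSeq, all on the plus strand, with each interferon-stimulated response element, read as GAAA, any 2 bases and GAAA on either strand, in capitals. They lie at chr15:88638766-88639015 for ISG20, chr10:89392373-89392622 for IFIT1 and chr14:94110486-94110735 for IFI27.
ISG20: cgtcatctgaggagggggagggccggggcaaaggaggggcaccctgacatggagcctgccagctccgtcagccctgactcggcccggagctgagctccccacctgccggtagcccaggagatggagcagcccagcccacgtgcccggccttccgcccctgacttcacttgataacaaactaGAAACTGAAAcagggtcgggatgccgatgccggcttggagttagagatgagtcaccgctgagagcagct
IFIT1: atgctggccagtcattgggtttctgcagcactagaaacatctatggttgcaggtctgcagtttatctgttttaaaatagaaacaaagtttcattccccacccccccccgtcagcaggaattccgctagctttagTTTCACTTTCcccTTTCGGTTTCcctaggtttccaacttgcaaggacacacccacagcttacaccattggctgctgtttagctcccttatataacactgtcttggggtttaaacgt
IFI27: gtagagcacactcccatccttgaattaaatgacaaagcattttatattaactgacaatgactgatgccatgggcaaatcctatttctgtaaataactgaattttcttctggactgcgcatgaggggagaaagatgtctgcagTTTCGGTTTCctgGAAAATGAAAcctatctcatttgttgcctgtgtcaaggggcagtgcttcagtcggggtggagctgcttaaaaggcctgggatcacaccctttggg
ISG20 held 1 match, and IFIT1 and IFI27 held 2 each. A match was present in 7 of the 9 interferon genes that rose, in 2.31% of the 9210 promoters of tested genes and in 3.07% of all promoters. Over the list, 18 of 31 tested members with a promoter in the table held it.

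ISG20, an antiviral exonuclease, had log2 levels of 8.39 and 8.31 with scrambled siRNA, against 6.78, 7.00 and 6.59 with empty vector. IFIT1, which binds viral RNA, had 9.04 and 8.78, against 7.85, 7.82 and 7.65. IFI27, a small mitochondrial protein often used to read interferon exposure, had 8.21 and 8.02, against 7.08, 7.30 and 6.74. In each of the 3 the lowest scrambled siRNA array lay above the highest empty vector array, as in every gene called higher. The log2 fold changes were 1.56 ± 0.30 for ISG20 (adjusted p = 0.0217), 1.13 ± 0.15 for IFIT1 (adjusted p = 0.0105) and 1.08 ± 0.17 for IFI27 (adjusted p = 0.0142). IFITM1, a membrane protein that blocks virus entry, rose by 0.99 ± 0.18, and the ubiquitin-like modifier ISG15 rose by 0.80 ± 0.18 (adjusted p = 0.0191 and 0.0353). OAS3, which makes the activator of RNase L, and HELZ2, a nuclear helicase, both named after their values were seen, rose by 0.74 and 0.69. Of the genes that did not pass, IRF7, a master factor of interferon genes, had 0.58 (adjusted p = 0.0678) and UBE2L6, the ISG15-conjugating enzyme, had 0.40 (adjusted p = 0.0947).

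Sensors and signalling genes of the interferon system gave 2 rises among 22, against 3.78% of all genes. Both are also among the 9 rises of the interferon response list. IFIH1 (MDA5), a sensor of long double-stranded RNA, had log2 levels of 7.46 and 7.45 with scrambled siRNA, against 6.87, 6.44 and 6.58 with empty vector (0.82 ± 0.16, adjusted p = 0.0224). IRF9, the DNA-binding subunit of ISGF3, had 9.80 and 9.81, against 9.31, 9.19 and 9.07 (0.61 ± 0.11, adjusted p = 0.0191). The interferon gene IFNB1 had no probe that passed the detection filter. In MHC class I presentation 3 of 18 rose. TAP2, a subunit of the peptide transporter, was at least 1.3-fold higher (adjusted p = 0.0333). HLA-G, whose probe can share sequence with other class I genes, rose by 1.19 ± 0.21 (adjusted p = 0.0191), and the chaperone CANX rose by 0.49 ± 0.12 (adjusted p = 0.0415). In the list of DNA sensing and plasmid response 0 of 9 passed limma's test, with 2 at an unadjusted p below 0.05, and in the RNA silencing machinery 0 of 11 passed, with 4.

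**Figure D3:**
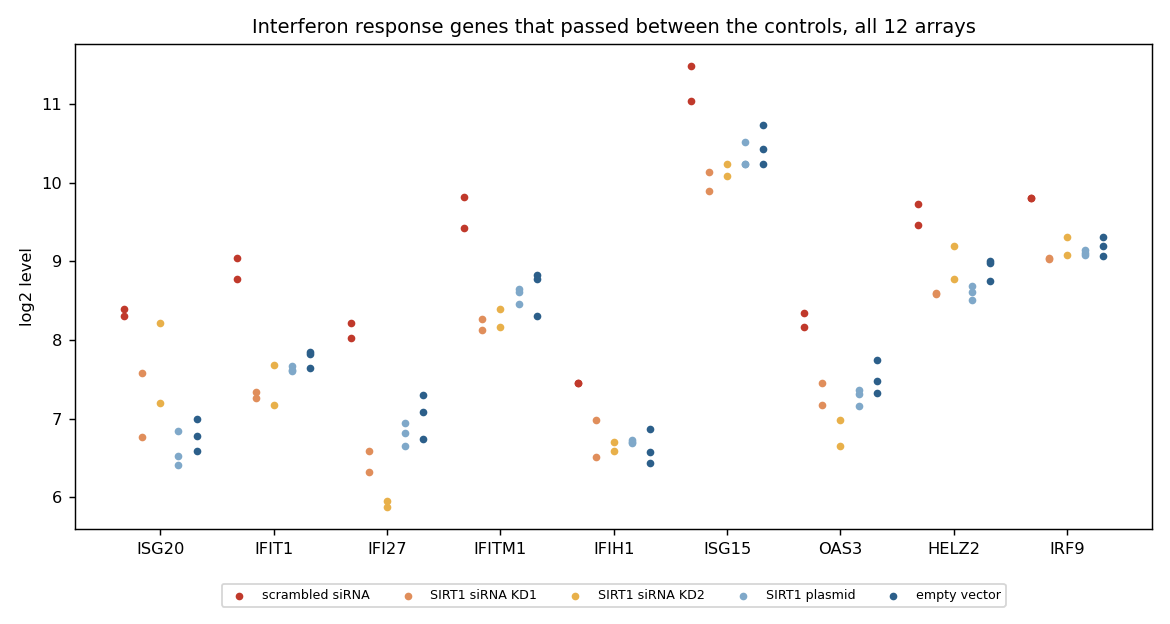
Log2 level (y axis) of the 9 interferon response genes that passed between the controls, on all 12 arrays, with groups from left to right as scrambled siRNA, SIRT1 siRNA KD1, SIRT1 siRNA KD2, SIRT1 plasmid and empty vector. Each point is 1 array. The 2 scrambled siRNA arrays lie above all 10 others in 9 of the 9 genes. Against the empty vector arrays this follows from the choice of genes called higher, and that choice also favours high scrambled siRNA values against the other groups. Among the 24 hypoxia response genes called higher, chosen in the same way, it held for 2. The share over all called genes was not counted.

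Lists of growth genes gave few calls, and their medians lay below 0. Of 51 genes of DNA replication, 0 passed limma's test, 9 had an unadjusted p below 0.05 and the median was -0.08. POLA1, the catalytic subunit of DNA polymerase alpha, had -0.47 (adjusted p = 0.0552), while PRIM1, its primase partner, had 0.40 (adjusted p = 0.0575). Of 49 genes of mitosis 1 fell, the chromokinesin KIF4A, with log2 levels of 7.78 and 7.91 with scrambled siRNA, against 8.39, 8.41 and 8.24 with empty vector (-0.50 ± 0.11, adjusted p = 0.037). CENPF, a kinetochore protein, had -0.72 (adjusted p = 0.0559) and CDC20, an activator of the anaphase-promoting complex, had -0.55 (adjusted p = 0.0618). The mitosis list had a median of -0.13, with 37 of 49 members below 0. Across all genes 1.27% fell, against 0 of 51 and 1 of 49 in these lists. An unadjusted p below 0.05 was found for 2666 of all 11458 genes.

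Ribosome biogenesis had the lowest median of the lists plotted below, -0.32 (families picked after the calls were seen are not among them), with 38 of 45 members below 0, 15 of them at an unadjusted p below 0.05. Its 1 call was NOP56, a core protein of the ribosomal RNA methylation machinery, with log2 levels of 11.37 and 11.28 with scrambled siRNA, against 11.90, 11.89 and 11.75 with empty vector (-0.52 ± 0.13, adjusted p = 0.047). RRP1, a pre-ribosomal factor, had -0.71 (adjusted p = 0.0614), and TAF1D, a subunit of an RNA polymerase I factor, had 0.77 (adjusted p = 0.051). Of 68 cytosolic ribosomal proteins 2 fell, RPL29 (-0.49) and RPS7 (-0.64), and the median was -0.01, as over all genes. Across all genes 1.27% fell. Of 27 proteasome subunits 2 fell, the regulatory particle members PSMC3 (-0.55) and PSMD3 (-0.59), and 22 lay below 0 with a median of -0.22. Of 21 heat shock chaperones 1 fell, the HSP90 cochaperone FKBP4 (-0.64 ± 0.15, adjusted p = 0.0371), and 19 lay below 0.

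Of 19 endoplasmic reticulum chaperones 2 rose and 1 fell, against 3.78% and 1.27% of all genes. The median was -0.14, with 12 of 19 below 0. EDEM1, which routes misfolded glycoproteins to degradation, rose by 0.54, and CANX rose as above. HYOU1, a chaperone named for its induction by low oxygen, fell by 0.54 on the log2 scale. Of 27 drug metabolism genes 5 rose, against 3.78% of all genes. CYP1A1, a target of the aryl hydrocarbon receptor, had log2 levels of 7.49 and 6.73 with scrambled siRNA, against 5.24, 5.07 and 4.81 with empty vector, where no array detected it, and was at least 2.41-fold higher (adjusted p = 0.0194). Its relative CYP1B1 had 0.90 (adjusted p = 0.0571), and UGT1A6, a glucuronosyltransferase, rose by 0.86 ± 0.15. Of 25 brush border and enterocyte genes 3 rose: the fructose transporter SLC2A5 (2.03 ± 0.41, adjusted p = 0.026), KLF4 and the microvillar cadherin CDHR5 (0.72 ± 0.16, adjusted p = 0.0323). Of 17 circadian clock genes 5 rose, among them BHLHE40. CIART, a repressor of the clock, was at least 3.88-fold higher (adjusted p = 0.0147), the repressor NFIL3 rose by 1.01 ± 0.19 and its opponent, the activator DBP, by 0.76 ± 0.19.

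For comparison, 3.78% of all genes rose and 1.27% fell. Genes of the cytoskeleton and the serum response factor gave 1 rise and 3 falls among 18. The rise was FHL2, a LIM domain cofactor (1.07 ± 0.21, adjusted p = 0.0236). The falls were ANKRD1, a YAP target (-0.86), CCN2 and the kinase gene LATS2 (-0.52). In the mesenchymal and contractile list 2 of 18 genes rose and 1 fell. TAGLN, an actin-binding protein, fell by 0.79 on the log2 scale. ITGA5, the fibronectin receptor subunit, rose by 1.46 and the collagen chain gene COL1A2 rose by 0.86. The Wnt and crypt list gave 1 fall among 21, SMOC2 (-0.83). The lysosome list gave 1 rise and 1 fall among 38, the cholesterol exporter NPC1 (0.73) and the protease CTSZ (-0.49).

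**Figure D4:**
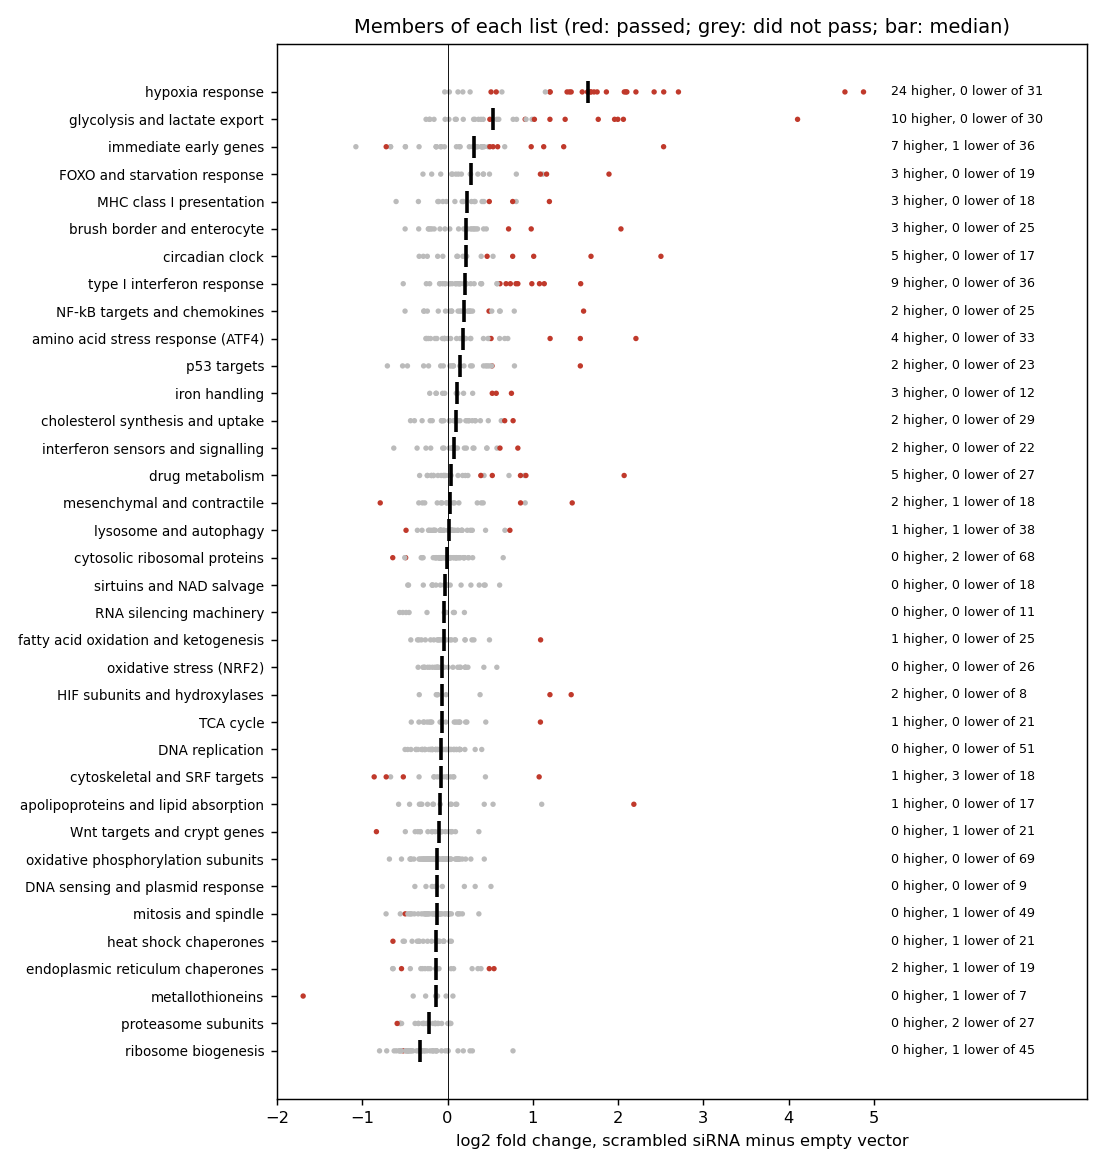
Log2 fold change of scrambled siRNA minus empty vector (x axis) for every tested member of each gene list (rows), with members that passed in red, the others in grey and the list median as a black bar. The counts at the right give members that rose and fell. The hypoxia list has the highest median, 1.64, and the ribosome biogenesis list has the lowest of those plotted, -0.32. Families picked after the calls were seen are not plotted.

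Among the other genes with the largest rises, AQP10, an aquaglyceroporin of the small intestine, had log2 levels of 10.00 and 9.81 with scrambled siRNA, against 5.92, 6.20 and 5.20 with empty vector (4.13 ± 0.54, adjusted p = 0.0099). CYP26A1, which degrades retinoic acid, had 8.99 and 8.68, against 5.92, 5.71 and 5.62 (3.09 ± 0.54, adjusted p = 0.0181). It was detected on only 1 of the 3 empty vector arrays, and a dimmer probe gave 0.74. CSF1R, the receptor of macrophage colony-stimulating factor, had 9.08 and 8.96, against 6.51, 6.52 and 6.04 (2.66 ± 0.51, adjusted p = 0.0214). DDIT4L, the paralogue of DDIT4, rose by 2.26 ± 0.36, CCDC183 by 2.14 ± 0.48, NDRG4, a relative of NDRG1, by 2.10 ± 0.34, and NPPB, the precursor of a natriuretic peptide, by 2.10 ± 0.52. These 7 genes, FOS, APOA4 and 6 of the hypoxia response genes above were the 15 largest rises among genes detected in both groups.

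The largest falls were smaller. MT4, a metallothionein known from stratified epithelia, had log2 levels of 6.02 and 5.79 with scrambled siRNA, against 7.65, 7.70 and 7.43 with empty vector (-1.69 ± 0.17, adjusted p = 0.00436), and was the 1 call among 7 metallothioneins. REG3A, an antimicrobial lectin of the gut, had 6.96 and 6.91, against 8.37, 8.33 and 7.64 (-1.18 ± 0.24, adjusted p = 0.0276). Its relative REG4 had 6.27 and 6.39, against 7.19, 7.35 and 6.98 (-0.84 ± 0.16, adjusted p = 0.0234). PLA2G2A, a secreted phospholipase with antibacterial activity, fell by 0.94 on the log2 scale (adjusted p = 0.0224). CPS1, the urea cycle enzyme of hepatocytes and enterocytes, had 8.12 and 8.27, against 9.33, 9.27 and 9.00 (-1.01 ± 0.14, adjusted p = 0.0105). The fibrinogen chains FGB (-0.87) and FGG (-0.76), like REG4 picked after the calls were seen, fell as well.

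KRT18, a keratin of simple epithelia, had log2 levels of 7.73 and 7.36 with scrambled siRNA, against 8.60, 8.32 and 8.69 with empty vector (-0.99 ± 0.15, adjusted p = 0.0141). Its filament partner KRT8, also named after the fact, had -0.38 (adjusted p = 0.0958). KHSRP, which promotes decay of AU-rich mRNAs, fell by 1.00 on the log2 scale and POLR2L, a shared subunit of the RNA polymerases, by 0.93. TOP1, DNA topoisomerase I, had -1.17 ± 0.20 (adjusted p = 0.0181), while its other probe gave -0.24 and the mean of its probes did not pass. The rest of the 15 largest falls were JADE2, TENM4, ZMYND19, SLC35F6, PLXNA2, TMEM33 and ITGA9, with log2 fold changes between -1.12 and -0.89. Both probes of TMEM33 fell by a similar amount, -0.95 and -0.98.

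The arrays carried the markers of colon epithelial cells. Of 18 listed, 15 were tested, 0 rose and KRT18 fell, and the summed log2 level of the list was 155.0 to 157.1 on the scrambled siRNA arrays, against 155.1 to 156.1 on the empty vector arrays. EPCAM, CDH1 and VIL1 were detected on all 5 arrays, with log2 fold changes of 0.09, 0.19 and -0.03. The list as a whole ran from -0.99 to 0.91. At an unadjusted p below 0.05, 3 of its members were higher with scrambled siRNA and 4 were lower. Of 12 fibroblast markers tested 2 rose, COL1A2 and the receptor gene PDGFRB (0.92 ± 0.20), with a summed level of 106.4 to 107.7, against 103.2 to 106.0, and DCN, THY1 and FAP did not pass the detection filter. Of 6 leukocyte markers tested 2 rose, with a summed level of 48.17 to 48.29, against 46.04 to 46.52. They were CD68, a lysosomal protein (1.06 ± 0.17, other probe 0.33), and CD2, which was at least 1.05-fold higher. The median of the 6 leukocyte markers was 0.02, with 3 above 0 and 3 below. Both marker counts stand against 3.78% of all genes that rose. PTPRC, the pan-leukocyte marker, and CD3D, CD3E, CD4 and TYROBP did not pass the detection filter. Of 3 endothelial and 5 goblet or endocrine markers tested, 0 passed limma's test and 2 of each had an unadjusted p below 0.05. The part of these markers in the gene groups above was not tested.

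A similar contrast of siRNA with plasmid can be drawn in the 7 other arrays. They share no sample with the controls but were normalised and fitted with them. SIRT1 was targeted in all 7, so the kind of nucleic acid and the targeting of SIRT1 cannot be told apart there. There, SIRT1 siRNA against SIRT1 plasmid, 1475 genes (12.9%) passed, 696 (6.07%) higher and 779 (6.8%) lower, and SIRT1 itself differed by -1.26. Its log2 levels were 7.35 and 7.33 with KD1 and 7.87 and 7.18 with KD2, against 8.66, 8.62 and 8.80 with SIRT1 plasmid. On this probe the SIRT1 plasmid arrays lay within the range of the empty vector arrays, 8.53 to 8.98. Of the 578 genes called between the controls, 538 (93.1%) had the same sign in the other arrays, against 71.3% of all genes. Both comparisons called 293 genes in the same direction, 234 higher and 59 lower, which is 50.7% of the control calls and 19.9% of the calls in the other arrays. The difference between the contrasts was tested as an interaction, and 0 genes (0%) passed limma's test, with 921 at an unadjusted p below 0.05 and 14 genes passing with the authors' normalised values. The numbers in the other arrays depend on single arrays: 130 to 1014 genes were higher and 115 to 1198 lower when 1 was left out, with fewer calls without any 1 of the plasmid arrays, KD1 replicate 2 or KD2 replicate 3, and more without KD1 replicate 1 or KD2 replicate 2.

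All 24 hypoxia response genes that rose between the controls also rose in the other arrays, and the list's median there was 1.58. ANKRD37 had log2 levels of 9.28 and 11.58 with KD1 and 10.70 and 12.04 with KD2, against 6.79, 6.84 and 7.19 with SIRT1 plasmid. LOX had 8.46 and 10.61 with KD1 and 10.29 and 11.35 with KD2, against 6.17, 6.47 and 6.74 with SIRT1 plasmid. The mean level of the list was -0.02 and 0.99 on the KD1 arrays and 0.54 and 1.23 on the KD2 arrays, against -0.78, -0.81 and -0.68 on the SIRT1 plasmid arrays. The siRNA arrays thus spread more widely in the other contrast, KD1 replicate 1 being the lowest, but all 4 lay above all 3 plasmid arrays. Of the 10 glycolysis genes that rose between the controls, 9 also rose there. Among the 36 immediate early genes 2 were higher and 8 lower in the other arrays, with a median of -0.03, against 7 higher and 1 lower between the controls, with a median of 0.31.

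The interferon list had a median of -0.24 in the other arrays, with 1 gene higher and 5 lower, and the 1 gene called higher in both comparisons was ISG20. IFIT1 had log2 levels of 7.34 and 7.26 with KD1 and 7.68 and 7.18 with KD2, against 7.61, 7.62 and 7.67 with SIRT1 plasmid (-0.27, adjusted p = 0.182). IFI27 had 6.59 and 6.32 with KD1 and 5.96 and 5.88 with KD2, against 6.82, 6.94 and 6.65 with SIRT1 plasmid (-0.62, adjusted p = 0.0227). The scrambled siRNA arrays thus stood above both the plasmid arrays and the SIRT1 siRNA arrays for these genes. The difference of the contrasts had an unadjusted p below 0.05 in 17 of the 36 interferon genes tested, against 921 of all 11458. All 17 were more positive between the controls. The 36 interferon genes include the 9 called higher, whose scrambled siRNA values also enter the difference and favour that direction. In the hypoxia list 1 of 31 genes had such a p. After adjustment 0 genes of either list passed. For IFI27 the difference was 1.69 (limma adjusted p = 0.0542), with the smallest unadjusted p of any gene. IFI27 was 1 of 4 genes called in opposite directions. The clock repressor PER2 was higher by 0.46 between the controls and lower in the other arrays (-0.34), whereas CTSZ was lower between the controls (-0.49) and higher in the other arrays (0.36). TULP3, a ciliary trafficking protein, was likewise lower between the controls (-0.73) and higher in the other arrays (0.54).

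**Figure D5:**
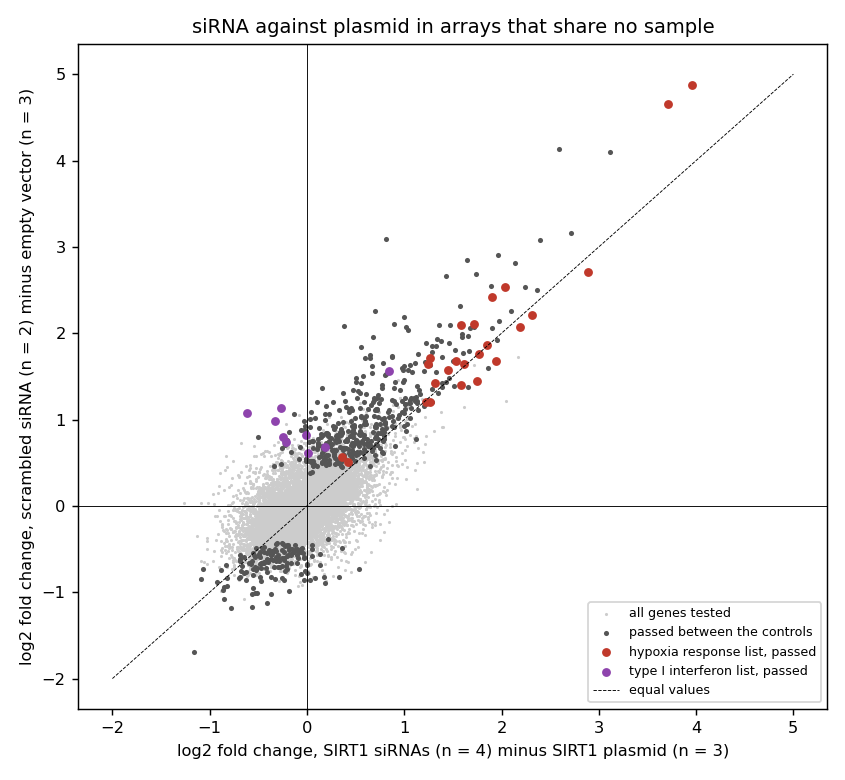
Log2 fold change of scrambled siRNA minus empty vector (y axis) against that of SIRT1 siRNAs minus SIRT1 plasmid (x axis) for 11458 genes, with the genes called between the controls in dark grey and the hypoxia (red) and interferon (purple) genes among them. The dashed line marks equal values. The 24 hypoxia genes lie to the upper right, and 6 of the 9 interferon genes lie left of 0 on the x axis.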

How the data were processed

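RNA of Caco-2 cells was labelled as biotin cRNA and hybridised to Illumina bead arrays. GenomeStudio 2010.1 is named in the submitters' processing notes. For 47323 probes the authors deposited intensity values that had not been normalised, each with a detection p-value, which the deposited files store as 1 minus p. The authors also deposited normalised log2 values, by a method the labels do not state, and the series' value table repeated them for 47231 probes. The other 92 probes, detected on no array, were left out.

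The intensities of all 12 arrays went through neqc (limma 3.58.1, R 4.3.3, offset 16), which uses the detection values for the background and equalises quantiles, on a log2 scale that understates folds of dim probes. A probe was kept if its detection p was below 0.01 on 2 or more arrays (19263 probes). The platform annotation gave 15104 of them a single symbol, and the other 4159 were not named. The probe with the highest mean stood for its gene, giving 11458 genes, and of 149 called genes with several probes 138 had all probes of 1 sign. Symbols were matched to a RefSeq table and 0 changed. Promoters and positions are from RefSeq, GRCh38.p14, since the array files name no build.

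A single limma fit held all arrays, with 5 group means (7 residual degrees of freedom, prior 3.63), 2-sided moderated tests, Benjamini-Hochberg adjustment over all genes and a threshold of 0.05. The median standard error was 0.16 between the controls. The labels give no slide or scan batch. The scripts were tested on simulated data. The alternatives are given in the closing section.

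Samples were grouped by their labels. The members and gene lists were chosen with earlier results of these data known. The genes named are SIRT1, the 15 largest rises and 15 largest falls past the threshold with groups that do not overlap and a single, non-placeholder symbol, detected in both groups. In each list described, up to 6 members past the threshold per direction and up to 3 others by smallest p are named, as are genes called in opposite directions in the 7 other arrays. A list is described by its counts and its median, without a test of the list.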

Additional observations from a re-analysis of the deposited data

How the results depend on the processing

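Leaving out 1 control array moved the counts most: 0 to 160 genes rose and 0 to 38 fell, against 433 and 145, and the hypoxia, glycolysis and interferon lists kept 0 to 15, 0 to 7 and 0 to 7 rises, against 24, 10 and 9. The zeros came without scrambled siRNA replicate 1 or 2, where the smallest adjusted p were 0.0519 and 0.0988 and the lone array was assumed to vary like the other groups. Leaving out 1 of the other 7 arrays, an alternative added after seeing the data, gave 130 to 1014 genes higher and 115 to 1198 lower with SIRT1 siRNA, against 696 and 779, and 0 to 1 genes for the difference of the contrasts. Rises and falls between the controls were 673 and 384 with the authors' normalised values, 238 and 59 with no detection filter, 830 and 437 with array weights and 266 and 61 with the replicate number as a block. Falls alone numbered 246 with probes detected on all control arrays, 367 with trend and robust variance and 235 with an offset of 50. In the other arrays 417 genes were higher and 409 lower under the replicate block. The number lower there was 1187 with the authors' values, 482 with no filter and 1220 with trend and robust variance. The difference of the contrasts passed in 14 genes with the authors' values, 5 with probes detected on all control arrays, 13 with trend and robust variance, 5 with array weights and 3 with an offset of 50. The glycolysis list had 16 rises with the authors' values. The cause was not tested, beyond the fewer or more genes and arrays tested.

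With the median of each array scaled in place of quantiles, 305 genes rose and 144 fell; with the 5 control arrays fitted alone, 464 and 143. All 578 genes kept their direction in each setting where they were tested, except 1 under the mean of all probes of a gene (577). Calls were lost more often: 289 of the 578 still passed under the replicate block and 283 with no detection filter. Of the 30 largest rises and falls named, 7 lost their call under the block, 5 with no filter, 8 to 12 without 1 empty vector array and 30 without 1 scrambled siRNA array. The share with the same sign in the other arrays stayed between 91.0% and 95.3%. Replicate numbers are shared by 2 pairs of control arrays, whose deviations correlated at 0.11 and 0.083, so the numbers were not taken as pairs. SIRT1 had a log2 fold change of 0.05 under the block and -0.12 to 0.18 when 1 control array was left out. With 2 and 3 arrays, log2 differences near 0.4 were the smallest that passed. Genes below the detection limit have only a bound.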

Other observations

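Gene families picked by symbol after the calls were seen held few further calls. Of 141 small nucleolar and nuclear RNAs tested 2 rose, the spliceosomal RNAs RNVU1-7 (1.03) and RNU4ATAC (0.57), and 2 fell, the guide RNAs SNORA64 (-0.82) and SNORD65 (-0.76). Of 35 histone genes 0 passed limma's test and 1 had an unadjusted p below 0.05. Of 19 lysine demethylases and relatives 3 rose: KDM3A, which removes methyl groups from histone H3 (1.40), KDM5B (0.61) and JARID2, a cofactor of the repressor PRC2 (0.60). KDM3A, already counted among the hypoxia response genes that rose, had log2 levels of 10.05 and 10.14 with scrambled siRNA. The empty vector arrays had 8.68, 8.69 and 8.71. Among 4159 probes with no single gene symbol, 40 were higher with scrambled siRNA and 19 were lower.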
